A study of Mus musculus with 8 samples.

Results

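The genes described here carry glucose into the heart cell, break it down to pyruvate and lactate, and store and release it as glycogen. They were taken from a list of 37 genes: transporters and hexokinases, the enzymes of glycolysis, lactate dehydrogenase, and the enzymes of glycogen breakdown and synthesis. The array carried 50 probes for 34 of them and none named for Gpi1, Pfkfb1 or Ldhb. A probe was tested when its detection p-value was under 0.05 on at least 4 of the 8 arrays, which 35 probes of 27 genes met, out of 9397 tested probes on the whole array. The other 15 probes did not meet it, and 9 of these were detected on no array.

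Each of 8 hearts, from mice aged 2 months, was read on an Illumina bead array; the mice were on the C57BL/6J background. In 4 mice a transgenic short hairpin RNA, switched on by doxycycline, lowered Taz, the gene of the cardiolipin-remodelling enzyme tafazzin, as a model of Barth syndrome. The other 4 were wild-type littermates without the hairpin, and doxycycline was given in the food of all 8 mice, at 625 mg/kg. The promoter of the hairpin, the number of transgenic lines and the sex of the mice are not given in the labels used here.

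In the healthy adult heart most fuel is fatty acid, and glucose and lactate supply the rest. Glucose enters mainly through the transporter of Slc2a4, which moves to the cell surface on insulin signals, and phosphofructokinase sets much of the rate at which sugar is committed to glycolysis. Glycogen, the stored form, is cut by glycogen phosphorylase, which phosphorylase kinase switches on when calcium or adrenaline signals rise. Many of these steps have several isozymes, and muscle, brain and liver are each known for a form of their own.

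The target of the hairpin was checked first. The brighter Taz probe (ILMN_2978525) had deposited signals of 539, 639, 477 and 516 in wild-type hearts 1 to 4 and of 69.9, 68.1, 53.3 and 59.5 in knockdown hearts 1 to 4, a log2 difference of -2.88 ± 0.117 (SE, limma adjusted p = 1.11e-07). Between 8935 and 10183 probes were detected per array, and normalized values of the tested probes correlated at 0.971 or above between any 2 hearts. Of 7 ventricular muscle markers on the array 6 were tested and none passed, and their summed normalized intensity was 123597 to 138403 in wild-type and 124676 to 134055 in knockdown hearts. All 6 tested atrial markers had negative differences, none past the threshold, with a median of -0.65. Myl7 (-0.71, limma adjusted p = 0.0526) and Mybphl (-0.80, limma adjusted p = 0.0850) did not overlap between the groups. Sln stood at -0.75, Myl4 at -0.58, Dkk3 at -0.45 by its brightest probe and Nppa, the largest part of the sum, at -0.29. The atrial sums were 34776 to 63229 in wild-type and 29973 to 41441 in knockdown hearts. Of 9 skeletal muscle markers 5 were detected on no array, Myh1, Myh4 and Tnnt3 among them, and the sums were near background (259 to 292 and 228 to 279). The summed smooth muscle markers did not overlap (16452 to 21682 and 22508 to 29631), with Acta2 alone among the 5 tested genes higher; Smtn fell by its brightest probe (-0.50), and Myh11 (-0.33), Tagln (-0.42) and Des (-0.09) had negative differences that did not pass. The 3 tested erythroid markers all had positive differences, none past the threshold: Slc4a1 stood at 0.94 (limma adjusted p = 0.0583), Alas2 at 0.59 and Hba-a1, which makes up nearly all of the sum, at 0.09. Sums of the erythroid, leukocyte, fibroblast, endothelial, adipocyte and liver markers overlapped between the groups, and none of their tested members passed. The part of these markers in the results below was not tested.

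Values were background-corrected, quantile-normalized and put on a log2 scale, and every difference is knockdown minus wild type. Across all tested probes 6.58% passed the Benjamini-Hochberg adjusted p of 0.05 in limma, 3.42% higher and 3.16% lower in knockdown hearts. Of the 35 probes of sugar metabolism 5 passed, 1 higher and 4 lower. Counted by gene, with the brightest tested probe standing for each, 1 of 27 genes rose, Pgam1, and 3 fell, Pfkm, Pygb and Phkg1. Over all 6889 named genes counted the same way 6.65% passed, 3.22% higher and 3.43% lower, so the single increase is near the share of any gene, and the decreases were 11.1% of the genes of sugar metabolism. The count of 3 lower genes was 1 without wild-type heart 4 and 2 without any other single heart, 2 in the authors' normalized table and with arrays scaled by their median, and 1 with the dimmest wild-type and knockdown arrays removed. The median log2 difference of the 27 genes was 0.06, against -0.01 for all genes. Groups did not overlap for 8 of the 35 probes (22.9%), 3 higher and 5 lower in knockdown hearts, against 14.6% of all tested probes, 6.98% higher and 7.65% lower. RNA came from heart tissue, so fewer cells of a type and less RNA per cell cannot be told apart.

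**Figure D1:**
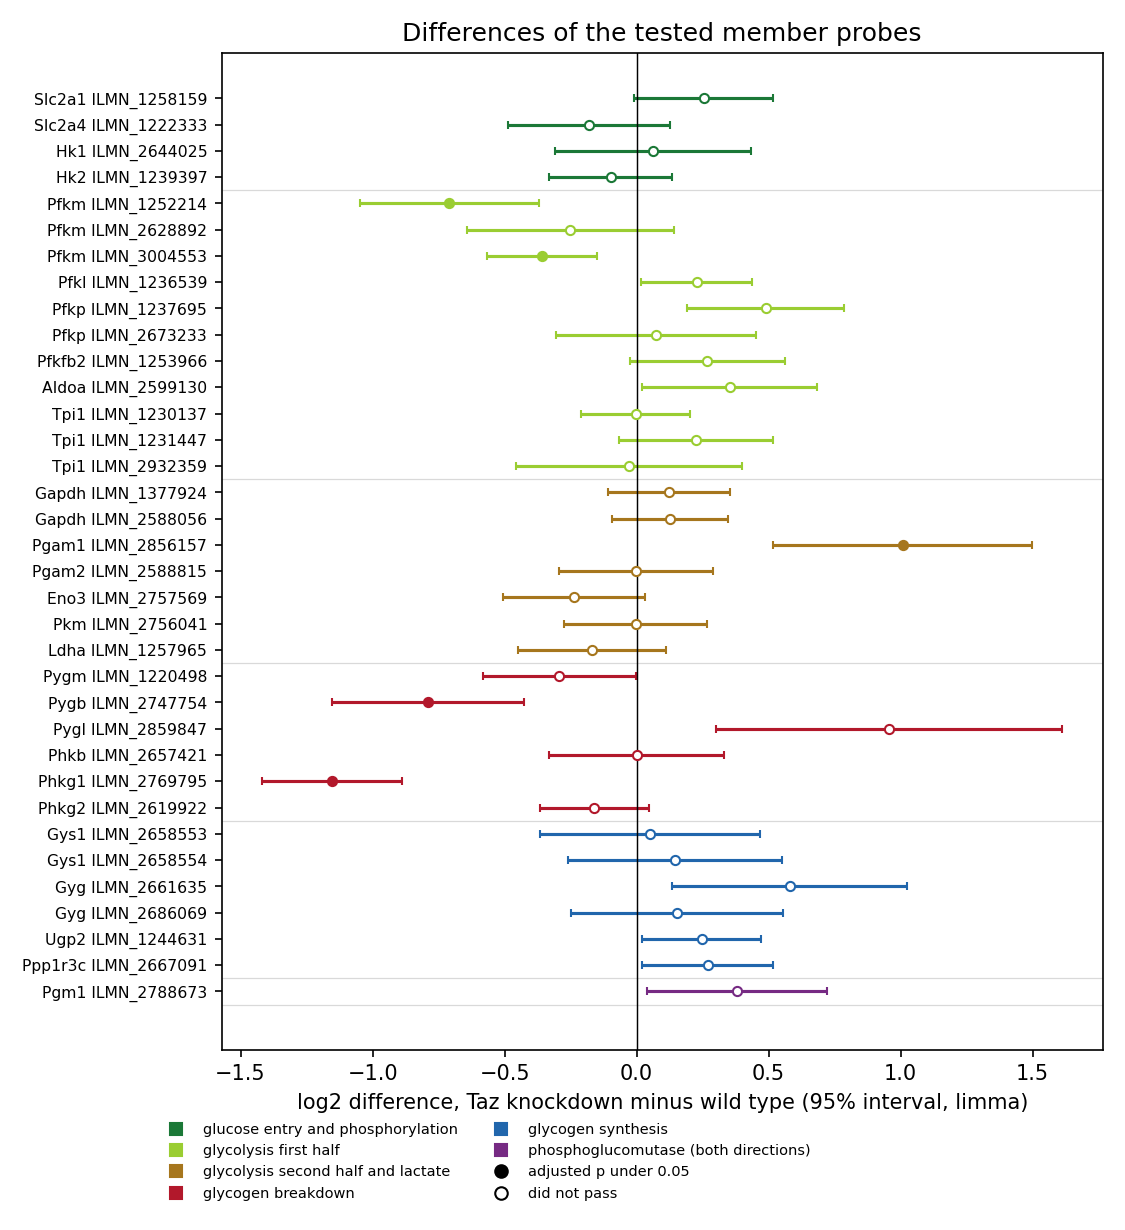
Log2 differences, Taz knockdown minus wild type, of the 35 tested probes of glucose uptake, glycolysis and glycogen (points) with 95% intervals from limma (bars), coloured by role. Filled points passed the adjusted p of 0.05: Pgam1 to the right of 0, and 2 probes of Pfkm, Pygb and Phkg1 to the left.

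Glucose entry and its first phosphorylation showed no gene past the threshold among 4 tested. Slc2a4, the insulin-responsive transporter, had normalized log2 intensities of 9.32, 9.20, 8.88 and 8.80 in wild-type hearts 1 to 4 and of 9.00, 9.00, 8.78 and 8.71 in knockdown hearts 1 to 4. These ranges overlapped, with a difference of -0.18 (95% interval -0.49 to 0.12, limma adjusted p = 0.518). Slc2a1, the transporter of basal uptake and of the fetal heart, stood at 6.85, 6.49, 6.95 and 6.82 in wild-type and 6.93, 7.10, 7.12 and 6.98 in knockdown hearts. Knockdown heart 1 lay within the wild-type range and the rest above it, with a difference of 0.25 (-0.01 to 0.52, limma adjusted p = 0.257). Hk2, the hexokinase known for insulin-sensitive muscle, ranged from 12.16 to 12.41 in wild-type and from 12.06 to 12.28 in knockdown hearts, and its interval of -0.33 to 0.14 holds 0. The more widely expressed Hk1 was dim, detected in 3 of 4 wild-type and 4 of 4 knockdown hearts, with 4.99 to 5.75 against 5.28 to 5.69 and an interval of -0.31 to 0.43.

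Phosphofructokinase, the enzyme of the committed step, is built from subunits of muscle (Pfkm), liver (Pfkl) and platelet (Pfkp) type. The muscle subunit was lower in knockdown hearts by 2 of its 3 probes. By probe ILMN_1252214 Pfkm stood at 10.01, 10.49, 10.20 and 10.04 on the log2 scale in wild-type hearts 1 to 4 and at 9.83, 9.22, 9.35 and 9.52 in knockdown hearts 1 to 4. No knockdown heart reached the wild-type range. The deposited signals were 1151 ± 257 (SD, n = 4) and 723 ± 236 (SD, n = 4), and the difference was -0.71 ± 0.15 (SE, limma adjusted p = 0.0197), a 1.64-fold decrease (95% interval 1.29 to 2.07).

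By the brighter probe ILMN_3004553 Pfkm stood at 12.28, 12.27, 12.29 and 12.40 in wild-type and at 11.85, 11.96, 12.01 and 11.99 in knockdown hearts. The groups again did not overlap, and the fall was smaller, 1.28-fold (1.11 to 1.48, limma adjusted p = 0.0483). The third probe, ILMN_2628892, gave 12.67, 12.35, 11.94 and 11.89 in wild-type and 11.92, 11.98, 12.22 and 11.72 in knockdown hearts, with a difference of -0.25 (-0.64 to 0.14) that did not pass and was -0.10 without wild-type heart 1, the highest. Which transcripts each probe reads was not examined. The call of ILMN_3004553 was lost when any 1 heart was left out (limma adjusted p 0.0753 to 0.126), and that of ILMN_1252214 without wild-type heart 2 (0.0555), knockdown heart 2 (0.0606) or knockdown heart 3 (0.0601). With the dimmest wild-type and knockdown arrays removed neither probe passed, at differences of nearly the same size (-0.72, limma adjusted p = 0.0797, for ILMN_1252214 and -0.37, limma adjusted p = 0.138, for ILMN_3004553), and ILMN_3004553 also missed the threshold in the authors' normalized table (-0.35, 0.0671) and with arrays scaled by their median (-0.33, 0.0846).

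The other subunits had positive differences that did not pass. Pfkp stood at 8.71, 9.02, 8.50 and 8.52 in wild-type and at 9.28, 9.12, 8.99 and 9.30 in knockdown hearts by its brighter probe, so that only wild-type heart 2 reached into the knockdown range. The difference was 0.49 (0.19 to 0.79, limma adjusted p = 0.0577), and the dimmer probe stood at 0.07. The brighter probe passed under 5 of 17 alternatives, among them the larger offset used for dim probes below (0.46, limma adjusted p = 0.0174). With 1 heart left out it passed only without wild-type heart 2 (0.60, limma adjusted p = 0.0256). Other such runs reached a limma adjusted p of 0.146. Pfkl stood at 10.82, 10.64, 10.70 and 10.70 in wild-type and at 10.87, 11.01, 10.91 and 10.98 in knockdown hearts. The knockdown hearts were all above the wild-type hearts by a small margin, with a difference of 0.23 (0.02 to 0.44, limma adjusted p = 0.201). Pfkfb2, the heart form of the enzyme that makes the activator of phosphofructokinase, stood at 0.27 (-0.03 to 0.56) and did not pass.

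The remaining enzymes from glucose 6-phosphate to triose did not pass. Aldoa, the muscle aldolase, stood at 11.98, 11.32, 11.57 and 11.48 in wild-type and at 12.00, 11.85, 12.16 and 11.75 in knockdown hearts, a difference of 0.35 (0.02 to 0.68, limma adjusted p = 0.211) with wild-type heart 1 inside the knockdown range. RefSeq names 2 pseudogenes of Aldoa, and whether its probe also reads such copies was not examined. The brightest probe of Tpi1, triose phosphate isomerase, ranged from 12.58 to 12.66 in wild-type and from 12.53 to 12.69 in knockdown hearts. The groups covered much the same range, with an interval of -0.21 to 0.20. Aldoc, the brain aldolase, and Pfkfb3, an inducible relative of Pfkfb2, were detected on no array.

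Among the steps from triose to pyruvate and lactate, Pgam1 rose and 5 other tested genes did not pass. Pgam1 is the widely expressed form of phosphoglycerate mutase, which moves the phosphate of 3-phosphoglycerate, and Pgam2 is the form of muscle. Pgam1 (ILMN_2856157) stood at 6.00, 5.62, 4.76 and 5.71 in wild-type hearts 1 to 4 and at 6.33, 6.49, 6.67 and 6.63 in knockdown hearts 1 to 4. Every knockdown heart lay above every wild-type heart, and wild-type heart 3, where it was not detected, was the lowest. Deposited signals were 32.9 ± 20.1 (SD, n = 4) and 77.8 ± 7.16 (SD, n = 4), near the dim end of the array. The difference was 1.01 ± 0.22 (SE, limma adjusted p = 0.0223), a 2.01-fold increase with a 95% interval of 1.43 to 2.83.

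With values below detection set to the smallest signal that counted as detected, the increase of Pgam1 was 0.89, and with a larger offset, which shrinks dim differences, it was 0.64. In the authors' normalized table it was 1.29 (limma adjusted p = 0.0442). The call was lost without knockdown heart 2 (limma adjusted p = 0.0559), knockdown heart 3 (0.0619) or knockdown heart 4 (0.0568), and with no filter on detection (0.0618). RefSeq names 2 pseudogenes of Pgam1, and whether the probe also reads such copies was not examined. Pgam2 stood at 11.85, 11.70, 11.38 and 11.71 in wild-type and at 11.77, 11.41, 11.80 and 11.65 in knockdown hearts. The muscle form thus covered the same range in both groups, with an interval of -0.29 to 0.29.

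Eno3, the muscle enolase, stood at 13.71, 13.74, 13.64 and 13.56 in wild-type and at 13.57, 13.11, 13.51 and 13.51 in knockdown hearts. Its difference of -0.24 (-0.51 to 0.03, limma adjusted p = 0.304) was -0.14 without knockdown heart 2, the lowest. Ldha, which turns pyruvate into lactate, stood at 12.27, 12.34, 12.57 and 12.46 in wild-type and at 12.31, 11.93, 12.41 and 12.32 in knockdown hearts, with overlapping ranges and an interval of -0.45 to 0.11. Pkm, pyruvate kinase of muscle (listed as Pkm2), had an interval of -0.28 to 0.27. The probes of Gapdh, glyceraldehyde phosphate dehydrogenase, stood at 0.12 and 0.13, with intervals of -0.11 to 0.35 and -0.09 to 0.34. RefSeq names 3 pseudogenes each of Gapdh and Ldha, so their values may include signal from copies. Pgk1, phosphoglycerate kinase, had a probe detected in 2 of 4 wild-type and 0 of 4 knockdown hearts and was not tested. No probe is named for Eno1 itself, and that of its retrotransposed copy Eno1b was detected on no array.

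Glycogen breakdown held the largest decrease. Of 6 tested genes Phkg1 and Pygb fell and 4 did not pass, where 3.43% of all named genes fell. Differences of 5 were negative, that of Phkb with no direction (-0.0003), with a median of -0.23 for the 6. Over all named genes 3593 of 6889 differences were negative. Phkg1, which encodes the catalytic part of phosphorylase kinase in muscle, stood at 6.85, 7.13, 6.97 and 6.84 in wild-type hearts 1 to 4 and at 6.03, 5.77, 5.78 and 5.60 in knockdown hearts 1 to 4. The groups were well apart. Deposited signals were 107 ± 18.1 (SD, n = 4) and 42.1 ± 14.8 (SD, n = 4), and the difference was -1.15 ± 0.12 (SE, limma adjusted p = 0.000189), a 2.23-fold decrease (95% interval 1.85 to 2.67). It passed under all 17 alternatives run, at -1.44 to -0.81.

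Phkg2, the catalytic subunit known from liver and testis, stood at 7.06, 7.02, 7.02 and 7.06 in wild-type and at 6.89, 6.77, 6.98 and 6.88 in knockdown hearts. The groups did not overlap, yet the difference of -0.16 (-0.37 to 0.05, limma adjusted p = 0.381) was small and did not pass. Phkb, a regulatory subunit, had 1 tested probe, dim, with an interval of -0.33 to 0.33. The 3 probes of Phka1, the muscle regulatory subunit that binds Phkg1, were detected on at most 1 array each and not tested.

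Glycogen phosphorylase, which the kinase activates, has forms of muscle (Pygm), brain (Pygb) and liver (Pygl), and the heart is known to hold the brain form beside the muscle form. Pygb (ILMN_2747754) stood at 9.54, 9.41, 9.52 and 9.72 in wild-type hearts 1 to 4 and at 8.62, 8.97, 9.12 and 8.32 in knockdown hearts 1 to 4. All knockdown hearts were lower, and they spread more widely than the wild-type hearts. Deposited signals were 725 ± 111 (SD, n = 4) and 437 ± 122 (SD, n = 4), and the difference was -0.79 ± 0.17 (SE, limma adjusted p = 0.0166), a 1.73-fold decrease (1.34 to 2.22). The call was lost without wild-type heart 4 (-0.73, limma adjusted p = 0.0546) and with the dimmest wild-type and knockdown arrays removed (-0.65, limma adjusted p = 0.0574).

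Pygm stood at 9.00, 9.11, 8.86 and 8.59 in wild-type and at 8.45, 8.78, 8.60 and 8.55 in knockdown hearts. The ranges overlapped and the difference of -0.29 (95% interval from -0.58 to just below 0) did not pass (limma adjusted p = 0.232). Pygl was near background, at 5.08, 5.13, 4.75 and 5.24 in wild-type and at 6.54, 4.95, 6.01 and 6.53 in knockdown hearts. Knockdown hearts 1, 3 and 4 were above all wild-type hearts and knockdown heart 2 lay among them. The difference of 0.96 (0.30 to 1.61) did not pass (limma adjusted p = 0.0865). Knockdown heart 2 was also the lowest knockdown heart for Slc4a1, Eno3 and Ldha, and a link was not tested. With 1 heart left out Pygl passed only without knockdown heart 2 (1.31, limma adjusted p = 0.00186). Other such runs reached a limma adjusted p of 0.194. With the larger offset the difference was 0.58 and passed (limma adjusted p = 0.0338), and 3 of 16 alternatives passed in all. This probe, detected in 1 wild-type heart and 3 knockdown hearts, sits just inside the filter, while the second probes of Pfkl and Pfkfb2, detected on 3 arrays, sit just outside it.

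**Figure D2:**
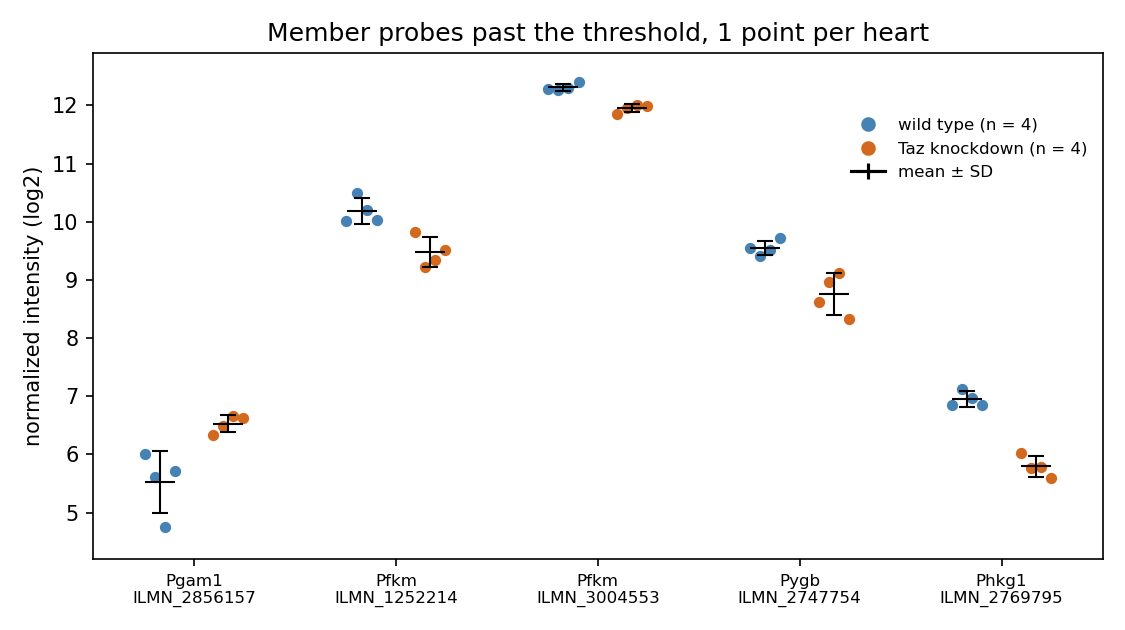
Normalized log2 intensity of the 5 member probes past the threshold, 1 point per heart, with the mean and SD of the 4 hearts of each group. Pgam1 was higher in every knockdown heart, and both probes of Pfkm, Pygb and Phkg1 were lower.

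Glycogen synthesis had no gene past the threshold, and the differences of its 4 tested genes were positive (median 0.26). Over all named genes 3296 of 6889 differences were positive. Gyg, glycogenin, which primes a new glycogen particle, stood at 5.96, 6.55, 6.43 and 6.32 in wild-type and at 6.60, 7.51, 6.62 and 6.85 in knockdown hearts by its brighter probe. The groups did not overlap by a narrow gap, and knockdown heart 2 was the highest, with a difference of 0.58 (0.13 to 1.02, limma adjusted p = 0.127), 0.37 without that heart, and 0.15 by the other probe. Ugp2, which makes the UDP-glucose that is built into glycogen, stood at 9.46, 9.70, 9.56 and 9.45 in wild-type and at 9.81, 9.67, 9.85 and 9.81 in knockdown hearts. Knockdown heart 2 lay within the wild-type range and the others above it, with a difference of 0.25 (0.02 to 0.47, limma adjusted p = 0.198). Ppp1r3c, which brings protein phosphatase 1 to glycogen, stood at 10.60, 10.41, 10.59 and 10.53 in wild-type and at 10.93, 10.56, 10.85 and 10.87 in knockdown hearts, with the same heart within the wild-type range and a difference of 0.27 (0.02 to 0.52, limma adjusted p = 0.199). Gys1, muscle glycogen synthase, was dim, at 0.05 and 0.15 by its probes. Gbe1, the branching enzyme, was detected on no array. Pgm1, phosphoglucomutase, which works in both directions between glycogen and glucose 6-phosphate, stood at 5.79, 5.41, 5.36 and 5.00 in wild-type and at 5.83, 5.84, 5.82 and 5.59 in knockdown hearts. Knockdown heart 4 lay within the wild-type range, and the difference was 0.38 (0.04 to 0.72, limma adjusted p = 0.188). The probe of Pgm2, its relative, was detected on no array.

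Whether isozymes of a step moved unequally was asked within each heart, as the log2 difference of their brightest tested probes. A shift common to all log2 values of an array then cancels. Levels of different probes cannot be compared, and only the change of this balance between groups was read. Of 12 listed pairs 8 had tested probes for both isozymes. The balance of Pfkl against Pfkm was -1.47, -1.63, -1.59 and -1.70 in wild-type hearts and -0.98, -0.95, -1.10 and -1.01 in knockdown hearts, a shift of 0.59 toward the liver subunit. That of Pfkp against Pfkm was -3.58, -3.26, -3.79 and -3.88 in wild-type and -2.57, -2.83, -3.02 and -2.69 in knockdown hearts, a shift of 0.85 toward the platelet subunit. Both sets of hearts were fully apart for these pairs, which share the Pfkm probe.

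Phkg2 against Phkg1 shifted by 0.99, from 0.21, -0.11, 0.04 and 0.21 in wild-type to 0.86, 1.00, 1.20 and 1.28 in knockdown hearts, and Pgam1 against Pgam2 by 1.01, also without overlap. Each of these 4 pairs reached the smallest p that 70 assignments of the hearts allow (exact two-sided permutation p = 0.0286), which adjusted over the 8 pairs is 0.0571 and did not pass. They use the values behind the calls above and are no further evidence for them. Pygb against Pygm shifted by -0.50 and Pygl against Pygm by 1.25, both with overlap (exact permutation p = 0.0571, adjusted 0.0762). Slc2a1 against Slc2a4 (0.43, exact permutation p = 0.114, adjusted 0.131) and Hk1 against Hk2 (0.16, exact permutation p = 0.400, adjusted 0.400) did not pass either. Leaving out dim probes took 3 pairs with a dim isozyme out of the family. The balances of Pfkp, Pfkl and Phkg2 were unchanged by this. Their adjusted exact permutation p became 0.0476 through the smaller family alone.

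**Figure D3:**
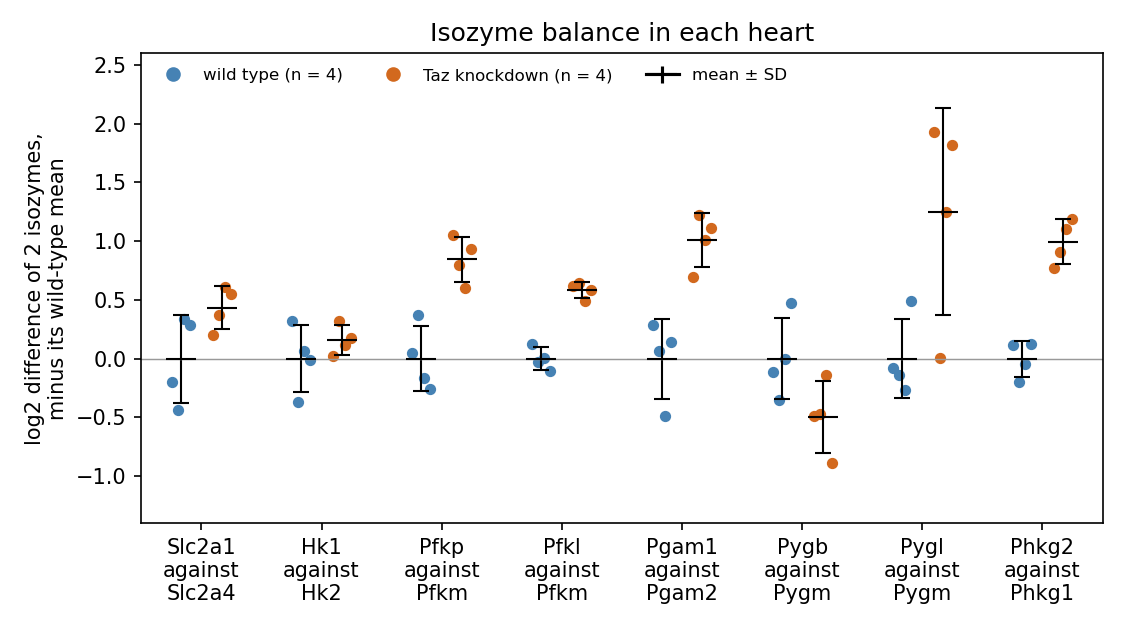
Log2 difference between 2 isozymes within each heart, minus its wild-type mean, for 8 pairs (points, hearts; bars, mean and SD of 4 hearts). The pairs Pfkp and Pfkl against Pfkm, Pgam1 against Pgam2 and Phkg2 against Phkg1 lay higher in every knockdown heart, and the other pairs overlapped.

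The sequence before the start sites of the genes that changed is shown because it is where regulators of their transcription are commonly sought. RefSeq (GRCm38.p6) gives 1 start site each for Pgam1, Phkg1 and Pygb and 4 for Pfkm. The 250 bases before the start are printed 5′ to 3′ on the strand of the gene, for Pgam1 at chr19:41911621-41911870 (plus strand), for Phkg1 at chr5:129879089-129879338 (minus strand) and for Pygb at chr2:150786546-150786795 (plus strand), with matches to ACGTG or CANNTG in capitals.
Pgam1: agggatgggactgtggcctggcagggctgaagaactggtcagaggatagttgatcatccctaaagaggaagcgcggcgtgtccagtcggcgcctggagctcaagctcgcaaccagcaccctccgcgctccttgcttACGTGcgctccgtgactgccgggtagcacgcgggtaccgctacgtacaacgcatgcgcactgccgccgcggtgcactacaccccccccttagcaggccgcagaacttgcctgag
Phkg1: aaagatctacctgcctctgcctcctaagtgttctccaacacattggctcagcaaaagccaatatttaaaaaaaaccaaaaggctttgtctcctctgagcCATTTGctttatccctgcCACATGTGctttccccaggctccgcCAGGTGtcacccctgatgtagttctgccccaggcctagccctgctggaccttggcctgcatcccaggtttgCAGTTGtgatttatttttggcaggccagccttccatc
Pygb: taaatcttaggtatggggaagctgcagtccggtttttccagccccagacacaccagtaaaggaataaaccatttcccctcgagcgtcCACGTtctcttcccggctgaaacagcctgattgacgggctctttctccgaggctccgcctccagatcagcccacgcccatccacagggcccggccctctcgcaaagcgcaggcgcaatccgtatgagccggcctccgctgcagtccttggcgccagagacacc

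ACGTG is 1 form of the core of the hypoxia response element, and other forms were not searched. CANNTG is the E-box read by many helix-loop-helix factors, of muscle among others. Both were searched on both strands, and CACGTG is a match to either. Phkg1 held 5 matches to CANNTG, overlapping ones counted, and none to ACGTG. Pgam1 and Pygb each held 1 match to ACGTG, in Pygb on the opposite strand, and none to CANNTG, and the 4 windows of Pfkm held 0 to 2 matches to ACGTG and 0 to 3 to CANNTG. Of 32851 windows of the same length before RefSeq start sites 16.6% held ACGTG and 66.2% CANNTG. TGATGNAA, the C/EBP-ATF element that ATF4 binds, was in 3.45% of windows and in none of the 7 windows of these 4 genes. The share of G and C was 64.0% for Pgam1, 60.0% for Pygb and 50.8% for Phkg1, against a median of 52.4%. A match is only a run of letters, and no match says nothing of the factor.

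Other genes of glucose and glycogen handling were read from 5 further lists, with 51 tested genes among 103 listed. Of these 2 rose and 2 fell by their brightest probe, shares of 3.92% each. These are near the shares of all named genes, 3.22% higher and 3.43% lower. The largest change was that of Stbd1, a protein that binds glycogen and membranes and is linked to the delivery of glycogen to the lysosome. Stbd1 stood at 5.93, 5.47, 5.11 and 5.85 in wild-type hearts 1 to 4 and at 7.58, 7.51, 7.42 and 7.61 in knockdown hearts 1 to 4. The groups were far apart and the knockdown hearts close together. Deposited signals were 34.7 ± 14.5 (SD, n = 4) and 173 ± 31.0 (SD, n = 4), and the difference was 1.94 ± 0.17 (SE, limma adjusted p = 4.41e-05), a 3.85-fold increase (95% interval 2.98 to 4.96). Detection was reached in 3 of the 4 wild-type hearts, and the increase passed under all 16 alternatives run, at 1.41 to 2.45. The other 9 tested genes of its list did not pass, among them Gaa, the lysosomal glucosidase of glycogen (0.23), and Gsk3b, a kinase that restrains glycogen synthase (0.29).

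Among 14 tested genes of lactate and pyruvate handling Got1 rose and Pdp2 and Bsg fell, where 3.22% of all named genes rose and 3.43% fell. Pdp2, a phosphatase that switches pyruvate dehydrogenase on, stood at 9.66, 9.93, 9.90 and 9.94 in wild-type and at 9.16, 9.06, 9.08 and 8.83 in knockdown hearts by its brighter probe. The fall was 1.77-fold (1.49 to 2.11, limma adjusted p = 0.00158), with no overlap, and 1.95-fold (1.52 to 2.49, limma adjusted p = 0.00500) by the dimmer probe, detected in 3 of 4 knockdown hearts. Got1, the cytosolic aspartate aminotransferase of the malate-aspartate shuttle, stood at 7.23, 6.94, 6.79 and 6.95 in wild-type and at 7.61, 7.85, 7.51 and 7.35 in knockdown hearts, a 1.52-fold increase (1.24 to 1.87, limma adjusted p = 0.0232). This call was lost without wild-type heart 2, 3 or 4 or knockdown heart 1 or 2 (limma adjusted p 0.0600 to 0.0659) and with the dimmest arrays removed (0.0503). Bsg, the partner that brings lactate transporters to the membrane, stood at 5.68, 5.64, 5.79 and 5.46 in wild-type and at 5.15, 4.91, 5.33 and 5.18 in knockdown hearts by a dim probe (-0.50, limma adjusted p = 0.0324).

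The other probe of Bsg stood at -0.10 and did not pass, so that its fall rests on 1 probe, and the call was lost when any of 6 hearts was left out (limma adjusted p 0.0588 to 0.0878), with the larger offset (0.0617), with median scaling (0.0515), with the variance prior following intensity (0.0621) and with the dimmest arrays removed (0.110). The other pyruvate dehydrogenase regulators Pdp1 (-0.36), Pdk4 (-0.46), Pdk2 (0.11) and Pdk1 (-0.03) did not pass. In limma none passed of 10 tested genes of the pentose phosphate, hexosamine and polyol branches. The same held for 12 genes of insulin signalling, AMPK and glucose-responsive transcription and for 5 further isozymes. Of these Hif1a, the hypoxia factor, had the smallest p and stood at 4.96, 5.51, 4.90 and 5.13 in wild-type and at 5.54, 5.82, 5.47 and 5.71 in knockdown hearts. Detection was reached in 1 wild-type heart and all knockdown hearts, so the probe met the filter through the knockdown hearts. Wild-type heart 2 lay within the knockdown range (0.51, limma adjusted p = 0.0636). With 1 heart left out Hif1a passed only without that overlapping heart (limma adjusted p = 0.0205). Other such runs reached a limma adjusted p of 0.158. Prkab1, a regulatory subunit of the energy sensor AMPK, followed at 8.83, 8.98, 8.94 and 8.81 in wild-type and 8.51, 8.63, 8.51 and 8.58 in knockdown hearts. Its groups did not overlap, and the difference of -0.33 (-0.54 to -0.12, limma adjusted p = 0.0674) did not pass. Prkab1 passed under 3 of 17 alternatives, the larger offset among them (limma adjusted p = 0.0310). It passed in no run with 1 heart left out (limma adjusted p 0.0848 to 0.166).

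**Figure D4:**
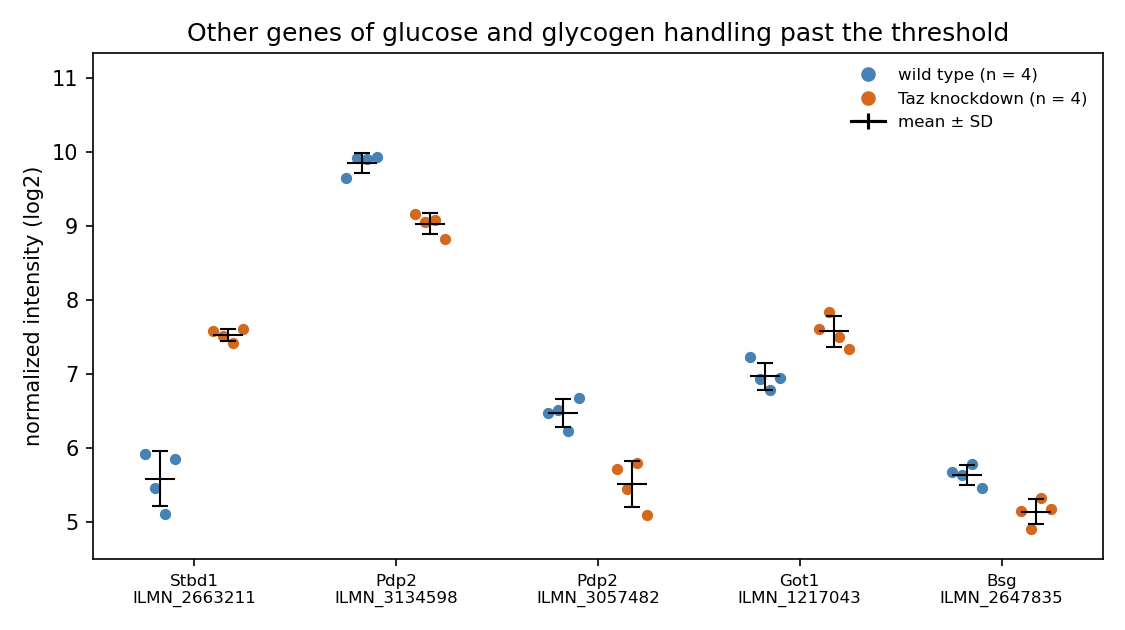
Normalized log2 intensity of the 5 probes of Stbd1, Pdp2, Got1 and Bsg past the threshold, 1 point per heart, with mean and SD of the 4 hearts of each group. Stbd1 and Got1 were higher in every knockdown heart, and Pdp2 by both probes and Bsg by this probe were lower.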

How the data were processed

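RNA of 8 mouse hearts, 4 per group, was labelled with biotin and hybridised to Illumina arrays, according to the labels. The main deposited table holds background-subtracted intensity values on a linear scale with a detection p-value beside each, called non-normalized per the file headers; the method of subtraction is not given in the sources used here. Another deposited table, also of intensity values but rescaled between arrays, served as an alternative. The sample descriptions gave each heart its group and number. Which mice shared a litter or cage is not given, and the number of arrays limits precision.

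Values were corrected by normexp from the detection p-values with an offset of 16, quantile-normalized and log2-transformed (neqc, limma 3.58.1 in R 4.3.3). The offset draws differences of dim probes toward 0. All 9397 probes detected (p under 0.05) on at least 4 of 8 arrays were fitted with lmFit and eBayes, two-sided, with Benjamini-Hochberg adjustment over all of them; intervals are 95%. Isozyme balances used exact permutation over hearts. On simulated data with the spread of these probes, changes of 1 on the log2 scale were recovered in 86.2% and of 0.5 in 37.8%, and 5.69% of the calls were false, on average over 20 simulations of 9397 probes. Each simulation changed 200 probes and drew all probes independently from normal distributions. Real probes need not behave so, and these shares may not hold for the arrays.

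Genes were named through the platform annotation, updated by Entrez number with RefSeq; a name that is only a synonym of another gene was not used, except Eno1b for Eno1. Named genes are all members with a tested probe, Taz, the other listed genes that passed and the 2 with the smallest p that did not; any further gene was picked with its values in view. The members and lists were chosen with earlier results of these data known. Deviations of same-numbered hearts correlated at 0.17, 0.01, -0.09 and -0.01, so the numbers were not used as pairs.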

Additional observations from a re-analysis of the deposited data

Results flagged for a closer look

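In groups of 4 hearts, 1 heart stood apart from the other three by more than Dixon's 95% limit in 3 of 86 groups of values examined, where chance alone gives about 1 in 20. Eno3, the muscle enolase, was at 13.11 in knockdown heart 2, below the other knockdown hearts at 13.51 to 13.57. The dimmer probe of Gyg was at 5.45 in wild-type heart 3, above the other wild-type hearts at 5.15 to 5.17. Pgm1 was at 5.59 in knockdown heart 4, below the other knockdown hearts at 5.82 to 5.84. No gene of sugar metabolism past the threshold had such a heart. The genes of the further lists were not examined in this way. Among them, wild-type heart 1 stood at 9.66 by the brighter probe of Pdp2, below the other wild-type hearts at 9.90 to 9.94.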

How the results depend on the processing

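Over all tested probes, 297 were lower in knockdown hearts, 451 with an offset of 50, 471 with a variance prior that follows intensity, 184 with the replicate number as a block and 142 with the dimmest wild-type and knockdown arrays removed, where the higher probes fell from 321 to 173. Leaving out 1 heart at a time gave 197 to 264 higher and 188 to 261 lower probes. Among the probes of sugar metabolism the single increase became 3 with an offset of 50 or the intensity prior, 2 with undetected values raised, 0 without a filter on detection and 0 with the replicate block; the genes gave the same counts of 3, 3, 0 and 0. The 4 lower probes and 3 lower genes became 1 and 1 with the replicate block, whose numbers do not pair the mice, and 1 and 1 without the dimmest arrays. Removing the dimmest arrays and raising undetected values were chosen after seeing the data. With detection required on all 8 arrays the single increase was that of Pfkp, since Pgam1 was not tested there. Leaving out 1 heart at a time gave 0 to 2 higher and 2 to 3 lower probes, and 0 to 2 higher and 1 to 2 lower genes. The calls under the block were 215 higher over all probes, and Phkg1 was the one member that passed (Pfkm 0.0703 and 0.108, Pgam1 0.0526, Pygb 0.0515, limma adjusted p). Of 589 values of single member probes under alternatives 25 lost a call, 8 gained one and no called value changed sign; probes near 0 that did not pass, such as those of Hk1, Pkm and Phkb, did change sign. Slide as a block was not run, since the files give no slides. Probes not detected on every array, among them those of Pgam1, Pygl, Hk1, Pgm1, Stbd1, Bsg and Hif1a, are limited by signal over background.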
